A study of Rattus norvegicus with 36 samples.

Results

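The glucocorticoid receptor (GR) and CREB phosphorylated at serine 133 (pCREB) were compared at 4227 places in the rat genome where a GR region and a pCREB region overlapped one to one by at least 1 bp. These shared sites made up 79.6% of the 5307 GR regions and 28.7% of the 14722 pCREB regions in the deposited table. A further 26 GR regions and 16 pCREB regions took part in overlaps that were not one to one and were left out. Every shared site lay well inside the overlap rule, since the smallest overlap was 41 bp and the nearest GR regions that failed the rule lay 59 bp from a pCREB region.

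GR is a nuclear receptor that binds corticosterone, the main glucocorticoid of the rat, moves into the nucleus and binds DNA directly or through other factors. CREB binds cAMP response elements, and phosphorylation at serine 133, which follows neuronal activity and cAMP signalling, lets it recruit the coactivators CBP and p300. Both factors are known for their part in memory formation in the hippocampus, and this is the question the series addresses.

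The samples came from hippocampi of male Sprague-Dawley rats that were untrained or trained and received vehicle or corticosterone. For each pool, chromatin from 4 hippocampi of 2 rats was fixed with 1% formaldehyde, then divided between the anti-GR antibody H-300 and an antibody to phospho-Ser133 CREB, so each pool gave a GR library and a pCREB library. The comparison used 8 vehicle pools, named 1A to 1D (untrained, lane 5) and 3A to 3D (trained, lane 7), and hence 16 libraries; untrained (2A to 2D, lane 6) and trained (4A to 4D, lane 8) corticosterone pools served as separate libraries. Condition and lane cannot be told apart. Dose, training task and ages are not stated in the labels used here. In whole tissue fewer cells with a factor bound and less binding per cell cannot be told apart.

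GR libraries held 40652 to 105131 reads in the shared sites and pCREB libraries 90092 to 167458. Per site, the median read count was 5 to 18 over the GR libraries and 13 to 29 over the pCREB libraries. GR library 1B was the shallowest, and GR libraries 1A and 1B and pCREB library 1A had the fewest peak calls. The peak-call, spread and interaction results are therefore also given without pools 1A and 1B. Signal is given as RPKM, here reads per kb of region width relative to the library's reads in shared sites, on a scale that sets the typical shared site equal for both antibodies. A log2 difference therefore says how GR and pCREB differ at a site relative to the typical shared site, and says nothing of which protein occupied more DNA overall.

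The GR and pCREB regions of a site lay almost on top of each other. Their centres were a median of 20.5 bp apart, and 3976 of 4227 pairs (94.1%) had centres within 100 bp. The pCREB region was wider at 3549 sites (84.0%), with median widths of 420 bp for GR and 498 bp for pCREB, and it contained the whole GR region at 2676 sites (63.3%). At 2747 sites at least 3 of the 8 GR vehicle libraries had a peak call, against 4031 sites for pCREB. At 209 sites (4.94%) no GR vehicle library had a call, and at 11 sites (0.26%) no pCREB vehicle library had one. The GR or pCREB region of such a site was listed from corticosterone pools.

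By point estimate, most shared sites carried GR and pCREB signal in nearly the same proportion. Of 4140 sites with enough reads to be tested, 3799 (91.8%) differed by less than 1.5-fold in either direction. At 3685 sites (89.0%) the whole 95% interval of the difference lay within 2-fold both ways. It lay within 1.5-fold both ways at only 1580 sites (38.2%), so at most sites agreement that close was not established. Input reads were not used here, so the values hold whatever background each library has at a site, and its part in these proportions was not tested. The other 87 sites had 15 to 67 GR reads summed over the 8 libraries and were not tested. Across the 4137 tested nuclear sites, mean GR and mean pCREB signal had a Spearman correlation of 0.63, as a description over sites that share libraries and region sets. Between single libraries it was 0.28 to 0.45 for GR against pCREB of the same pool. For GR against pCREB of other pools of its condition it averaged 0.25 to 0.34. For a GR library against the GR libraries of other pools of its condition it averaged 0.23 to 0.34, and for pCREB against pCREB 0.38 to 0.50. Of the 414 sites with the most GR signal, 266 (64.3%) were also among the 414 with the most pCREB signal.

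**Figure D1:**
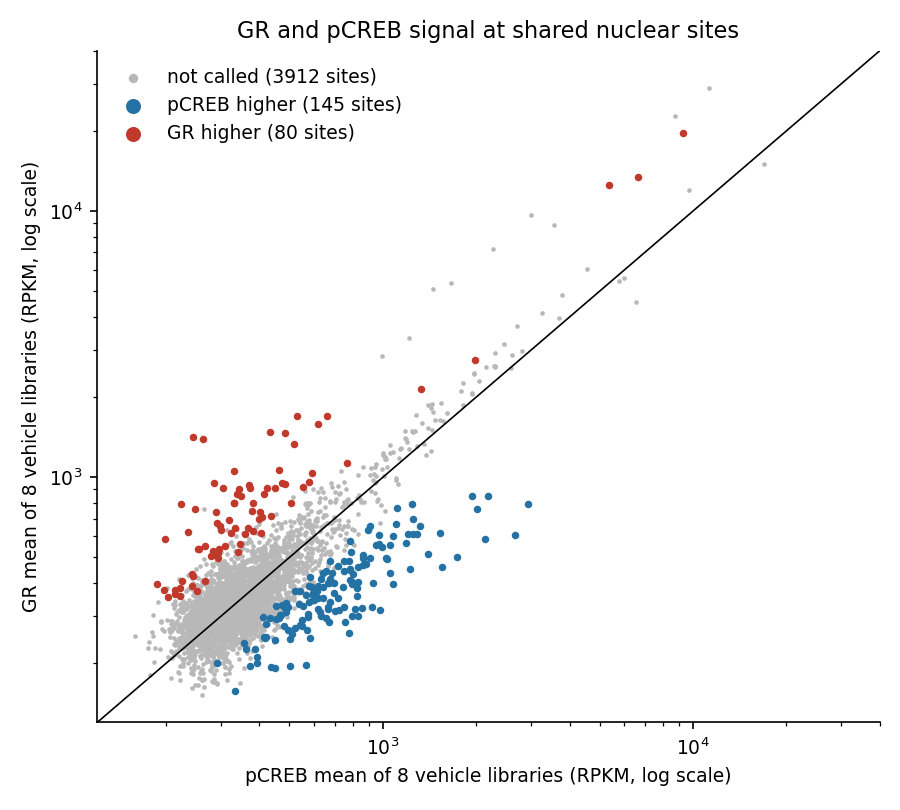
Mean RPKM of 8 pCREB vehicle libraries (x axis, log scale) against mean RPKM of 8 GR vehicle libraries (y axis, log scale), 1 point per tested nuclear site, with the line of equal signal. The 80 sites called GR higher lie above the line and the 145 called pCREB higher lie below it, while most of the others lie along it.

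At 225 sites the proportion differed: 80 sites were GR higher and 145 were pCREB higher, out of 4140 (edgeR quasi-likelihood test with pool as a block, Benjamini-Hochberg adjusted p under 0.05). These are 1.93% and 3.5% of the tested sites. The GR-higher sites had 1.37-fold to 5.38-fold more GR (median 1.89-fold), and the pCREB-higher sites 1.36-fold to 4.42-fold more pCREB (median 1.87-fold). More than 2-fold differences were seen at 31 of the 80 and 50 of the 145. The difference pointed one way in 7 or 8 of the 8 pools at 70 GR-higher and 133 pCREB-higher sites, and at 670 of all 4140 tested. At 3 GR-higher and 19 pCREB-higher sites the 8 GR and 8 pCREB values did not overlap at all, as at 23 of all 4140 (0.556%). Without pool as a block, 39 and 95 sites were called, all of them among the 80 and the 145.

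Chromosome 10, at chr10:68863412-68863783 (build rn6), held the site with the largest excess of GR. GR values there were lowest at 698, median 1275 and highest at 3208 RPKM over the 8 vehicle libraries, and pCREB values 101, 240 and 399 RPKM. Every GR library exceeded every pCREB library. The site had 322 GR reads and 65 pCREB reads in all, and GR was higher by 2.43 on the log2 scale (SE 0.21, edgeR adjusted p = 9.6e-17). Here and below, the SE at a site comes from the edgeR fit, which shares variance estimates across sites. It does not measure the spread of the difference over the 8 pools. Without pool as a block the difference was 2.44 (SE 0.30, edgeR adjusted p = 1.5e-05). It ranked 67 of 4140 by mean GR signal but 3918 by mean pCREB signal, and peaks were called in all 8 GR libraries but in 3 pCREB libraries.

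The site at chr5:74507825-74508182 was similar. GR values ran from 613 to 4445 RPKM with a median of 981, and pCREB values from 77.0 to 403 RPKM with a median of 298. These ranges did not overlap either, although the highest GR value, from pool 1B, was far above the next highest. GR was higher by 2.27 on the log2 scale (SE 0.21), and by 1.99 without pool 1B. Without pool as a block the difference was 2.22 (SE 0.41, edgeR adjusted p = 0.0067).

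Of the other 8 named GR-higher sites, none had fully separated ranges. The site at chr6:11963483-11963936 differed by 1.70 on the log2 scale, with medians of 1431 RPKM for GR and 406 RPKM for pCREB. At chr9:29226466-29226960 the difference was 1.58, with medians of 715 and 281 RPKM. The remaining 6, at chr10:55683414-55683910, chr3:122189279-122189674, chr2:183263510-183264020, chr16:11411819-11412212, chr3:150581563-150581906 and chr6:104079950-104080361, differed by 1.52 to 1.19. Of these, 4 lost their call without the pool block, with edgeR adjusted p of 0.077 at chr10:55683414-55683910, 0.105 at chr3:122189279-122189674, 0.154 at chr16:11411819-11412212 and 0.122 at chr3:150581563-150581906.

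GR library 1B gave the highest of the 8 GR values at all 10 named GR-higher sites, against 53 of the 80 GR-higher sites and 1020 of all 4140 tested sites. At chr10:55683414-55683910 it stood at 4922 RPKM beside a median of 1321. All 10 sites were still called without pool 1B, with log2 differences of 0.98 to 2.17, and 62 of the 80 GR-higher sites were. The other 18 kept their direction but not their call.

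The largest excess of pCREB was on chromosome 12, at chr12:503395-503687. GR values were lowest at 333, median 527 and highest at 970 RPKM, and pCREB values 1466, 2541 and 4538 RPKM. Every pCREB library lay above every GR library. GR was lower by 2.14 on the log2 scale, that is 4.42-fold more pCREB (SE 0.20, edgeR adjusted p = 6.2e-15), from 115 GR and 2056 pCREB reads. The site ranked 23 for mean pCREB signal and 311 for GR.

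At chr14:10580909-10581163, pCREB values were 2139 to 4314 RPKM with a median of 2923, and GR values 464 to 1216 RPKM with a median of 747. The ranges were again apart, and pCREB was 3.80-fold higher. Next came chr6:9482406-9482708 at 3.75-fold and chr1:80920716-80921001 and chr5:63781489-63781877 at 3.33-fold each. All 3 had pCREB ranges above the GR ranges, and GR medians of 472, 496 and 454 RPKM beside pCREB medians of 1993, 1570 and 1575 RPKM. The remaining 5, at chr16:23668169-23668474, chr1:192613158-192613472, chr17:6244406-6244829, chr18:18079529-18080011 and chr2:30345604-30345806, had 2.89-fold to 2.78-fold more pCREB. The last rests on 41 GR reads, and GR regions of 202 bp against 1000 bp for pCREB. All 10 kept their call without pool 1B. On a scale set by the totals of all nuclear regions of each list, which moved the median difference to 1.61 on the log2 scale, the direction turned at these last 5 sites. The call was lost at 4 of the other 5, all but chr12:503395-503687.

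**Figure D2:**
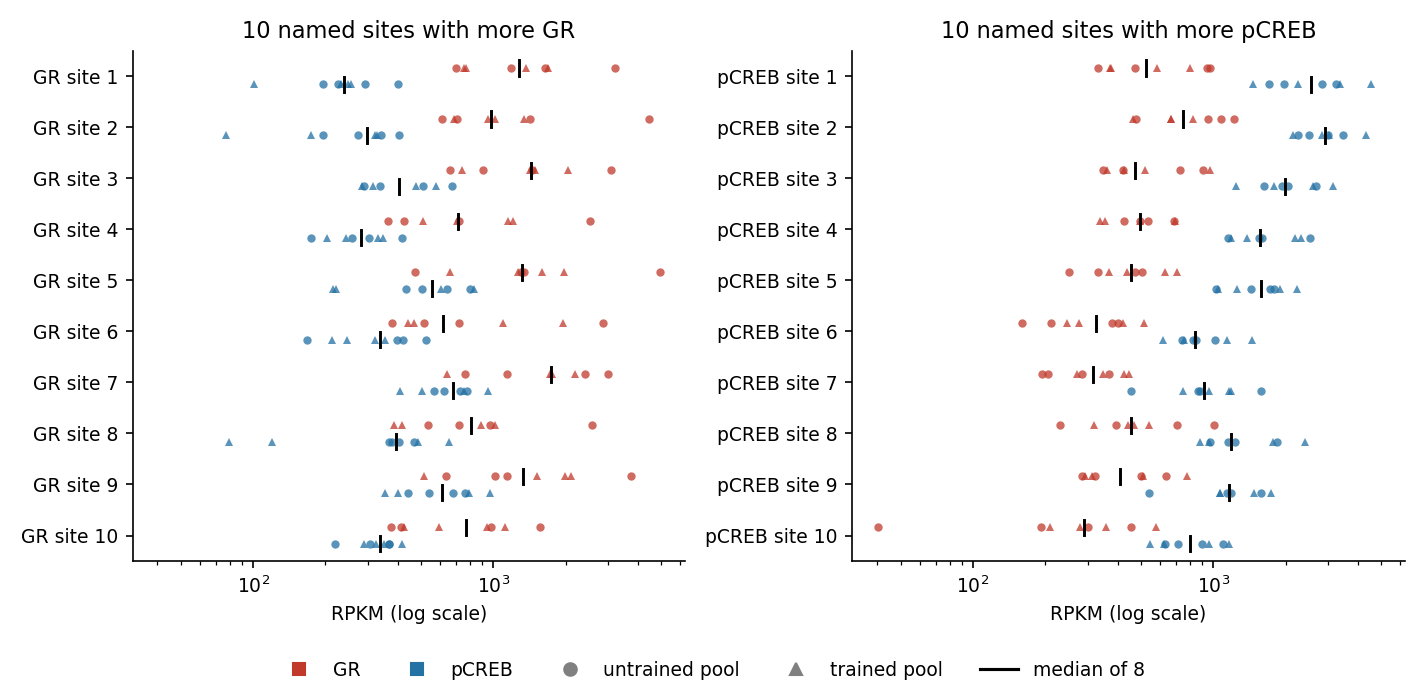
RPKM (log scale) in each vehicle library at the 10 named GR-higher sites (left) and the 10 named pCREB-higher sites (right), in the order described in the text, with circles for untrained pools, triangles for trained pools and a bar at the median of 8. GR site 1 has GR values of 698 to 3208 and pCREB values of 101 to 399; pCREB site 1 has the reverse, with GR at 333 to 970 and pCREB at 1466 to 4538.

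Called sites of both classes were most frequent at sites with high mean RPKM, a measure that includes the excess behind each call. Of the 828 sites with the highest mean RPKM over both factors, 54 were GR higher and 106 pCREB higher, and of the 828 with the lowest, 1 and 3 were. Ranked by reads per region, without width correction, the top 828 held 27 GR-higher and 88 pCREB-higher sites, so this count depends on the measure. Peaks were called in all 8 pCREB vehicle libraries at 82 of the 145 and 8 of the 80, against 413 of all 4140 tested sites. Peaks in all 8 GR libraries were called at 0 of the 145 and 14 of the 80, against 42 of 4140. No GR vehicle library had a call at 11 of the 145 and 0 of the 80, against 163 of 4140. These call counts come from the same reads as the difference and are a description. The median SE was 0.17 on the log2 scale in the 828 sites with the most reads per region and 0.28 in the 828 with the fewest.

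The pCREB region was wider than the GR region at 140 of the 145 pCREB-higher sites but at 37 of the 80 GR-higher sites, against 84.2% of all tested sites. Median widths were 322 bp for GR and 551 bp for pCREB at pCREB-higher sites, and 355.5 bp and 362.5 bp at GR-higher sites. Region width enters the RPKM directly, so the same counts were also compared as reads per region. Then 230 sites (5.56%) were GR higher and 382 (9.23%) pCREB higher, including 64 of the 80 and 133 of the 145. Of the 80 GR-higher sites, 6 had the opposite sign as reads per region, and none of the 145 did. All 20 named sites kept their direction.

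**Figure D3:**
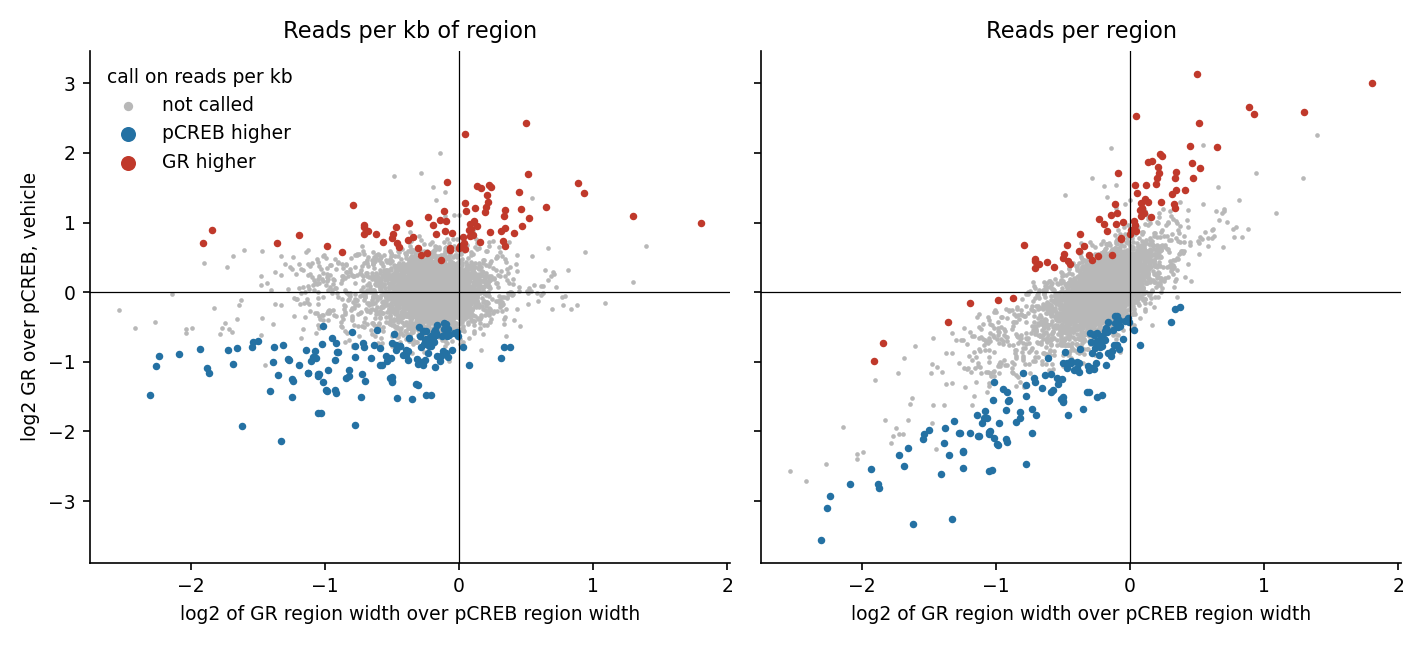
Log2 difference of GR over pCREB (y axis) against log2 of the ratio of region widths (x axis) at tested nuclear sites, per kb of region (left) and per region (right), coloured by the call on reads per kb. On the right the differences rise with the width ratio. On the left the median difference lies between -0.01 and 0.05 in 5 equal groups of width ratio, but the calls still vary with it. From the lowest to the highest ratio, the groups hold 85, 21, 17, 15 and 7 pCREB-higher sites and 18, 5, 4, 9 and 44 GR-higher sites. The pCREB region is the wider at 140 of 145 pCREB-higher sites.

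Most called sites pointed the same way in the corticosterone pools, which were not in the vehicle fit. Those pools did add peak calls to the region lists, and both fits used the same region widths, so the comparison is not fully independent. In the 8 corticosterone pools, 72 of the 80 GR-higher sites and 135 of the 145 pCREB-higher sites had the same direction, and 53 and 71 of them were called in that direction. None was called in the opposite one, against 47 of all 4140 tested (1.135%). Over all 4140 sites tested in vehicle pools, 2561 (61.9%) had the same direction and 307 were called in it. Over all 4217 sites tested in those pools, 226 (5.36%) were GR higher and 133 (3.15%) pCREB higher. The median log2 difference of the 80 sites was 0.92 in vehicle and 1.13 in corticosterone pools, and that of the 145 was -0.90 and -0.51. These sites were chosen on their vehicle values, so the medians do not measure a shift with treatment. For sites called GR higher in corticosterone pools the median was 0.92 there and 0.38 in vehicle pools. For sites called pCREB higher there it was -0.68 and -0.67. All 20 named sites were called in the same direction in corticosterone pools. At chr10:68863412-68863783 the difference there was 3.17 (SE 0.17) and at chr12:503395-503687 it was -2.13 (SE 0.17).

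Untrained and trained vehicle pools were also fitted alone, and calls made in one were looked up in the other. The untrained pools called 16 GR-higher sites (0.428% of those tested) and 27 pCREB-higher sites (0.722%). In the trained pools 15 of the 16 and all 27 had the same direction, and 14 and 25 were called. The trained pools by themselves called 53 (1.32%) and 93 (2.31%), of which 46 of the 48 measured and 88 of 93 had the same direction in untrained pools. Only 14 of the 48 and 25 of the 93 were called in untrained pools. The share of all tested sites with the same direction in both training states was not counted. One named site, chr3:122189279-122189674, did not pass in untrained pools alone (edgeR adjusted p = 0.0855).

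**Figure D4:**
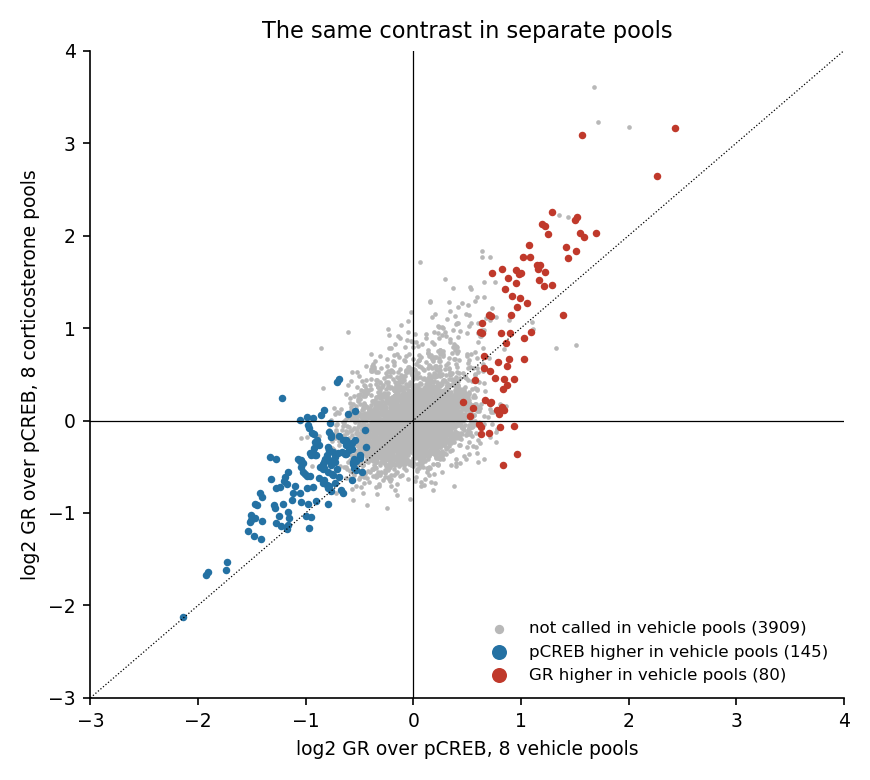
Log2 difference of GR over pCREB in the 8 vehicle pools (x axis) against the same difference in the 8 corticosterone pools (y axis), 1 point per nuclear site, coloured by the vehicle call; the dotted line marks equality. Of the 80 GR-higher sites 72 lie above 0 on the y axis, and of the 145 pCREB-higher sites 135 lie below it.

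Whether the GR to pCREB difference itself depended on training was tested as an interaction, and no site of 4140 (0%) passed in edgeR. At an unadjusted p under 0.05 there were 148 sites, and DESeq2 called 0 as well, with 44 at an unadjusted p under 0.05. Interaction SEs had a median of 0.45 (log2), and even an estimate of -2.12 did not pass. Differences well above the median SE could therefore go uncalled. The smallest p belonged to chr7:48549186-48549429, where GR was 318, 879, 433 and 615 RPKM in untrained and 271, 248, 138 and 95.9 RPKM in trained pools. At that site pCREB was 232, 822, 315 and 375 RPKM in untrained and 733, 898, 443 and 413 RPKM in trained pools. GR was thus higher in untrained pools without overlap, whereas the pCREB ranges overlapped (log2 interaction -2.12, SE 0.52, edgeR adjusted p = 0.298).

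The interaction with corticosterone passed at 2 of 4225 sites (0.0473%), with 333 at an unadjusted p under 0.05. At chr15:58884552-58885070 GR was 254, 350, 146 and 399 RPKM in untrained vehicle pools and 2161, 1006, 548 and 2223 RPKM in untrained corticosterone pools. In trained pools GR was 309, 676, 134 and 90.8 RPKM with vehicle and 975, 1448, 1256 and 1162 RPKM with corticosterone. GR was higher with corticosterone without overlap in each training state, whereas pCREB stayed between 110 and 573 RPKM in all 16 libraries. The log2 interaction was 1.68 (SE 0.34, edgeR adjusted p = 0.0362). At chr1:125288347-125288746 it was 1.13 (SE 0.25, edgeR adjusted p = 0.0362), with GR and pCREB ranges that overlapped between treatments. Without pool 1B the number of sites called rose from 2 to 31, and without pools 1A and 1B to 36. Neither of the 2 calls was stable: 9 of 16 fits that left out 1 pool lost the first and 10 of 16 the second, and DESeq2 called neither (DESeq2 adjusted p of 0.0614 and 0.21).

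The site with the highest mean pCREB signal, at chr4:77447833-77448435, was also among the strongest for GR. It had pCREB at 13337 to 22244 RPKM, and GR at 10378 to 24840 RPKM, and its log2 difference was -0.20 (SE 0.26, edgeR adjusted p = 0.771). The 3 sites on the mitochondrial genome held 10.9% to 15.9% of shared-site reads in GR libraries and 6.7% to 21.7% in pCREB libraries. Their log2 differences of 0.27, 0.26 and 0.10 did not pass (edgeR adjusted p of 0.705, 0.709 and 0.903).

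More shared sites had a peak call in a pCREB library than in the GR library of the same pool. The share was lowest at 4.19%, median 43.4% and highest at 69.7% over the GR libraries, and 16%, 75.6% and 92.5% over the pCREB libraries. It was higher for pCREB in 8 of 8 pools, by a mean of 28.7 percentage points (SD 19.9; two-sided exact permutation test of paired values, p = 0.00781, the smallest that 8 pools allow). In 4 untrained or 4 trained pools alone the exact p was 0.125, the smallest that 4 pools allow. Without pools 1A and 1B, GR minus pCREB was -25.1 points (exact permutation p = 0.03125, the smallest that 6 pools allow). The GR library also had fewer shared-site reads than the pCREB library in all 8 pools, and the part of depth was not tested. The regions were themselves listed from these peak calls, and the shared sites are a far larger share of the GR list than of the pCREB list. The exact p therefore holds only for sites chosen through their calls, and the part of that choice was not tested.

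The spread of signal over the shared sites, taken as the log2 ratio of the 90th to the 10th percentile of RPKM at equal depth, did not separate the factors. It was 1.84 ± 0.61 (SD, n = 8) for GR and 1.64 ± 0.25 (SD, n = 8) for pCREB, with GR higher in 5 of 8 pools (mean difference 0.20, two-sided exact permutation p = 0.148). GR library 1B had 3.32 where the other GR libraries had 1.41 to 1.83, and without pool 1B the difference was 0.065. Without pools 1A and 1B the difference was 0.072 (exact permutation p = 0.344). Without thinning to equal depth GR was higher in 8 of 8 pools, by 0.39 (exact p = 0.00781).

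**Figure D5:**
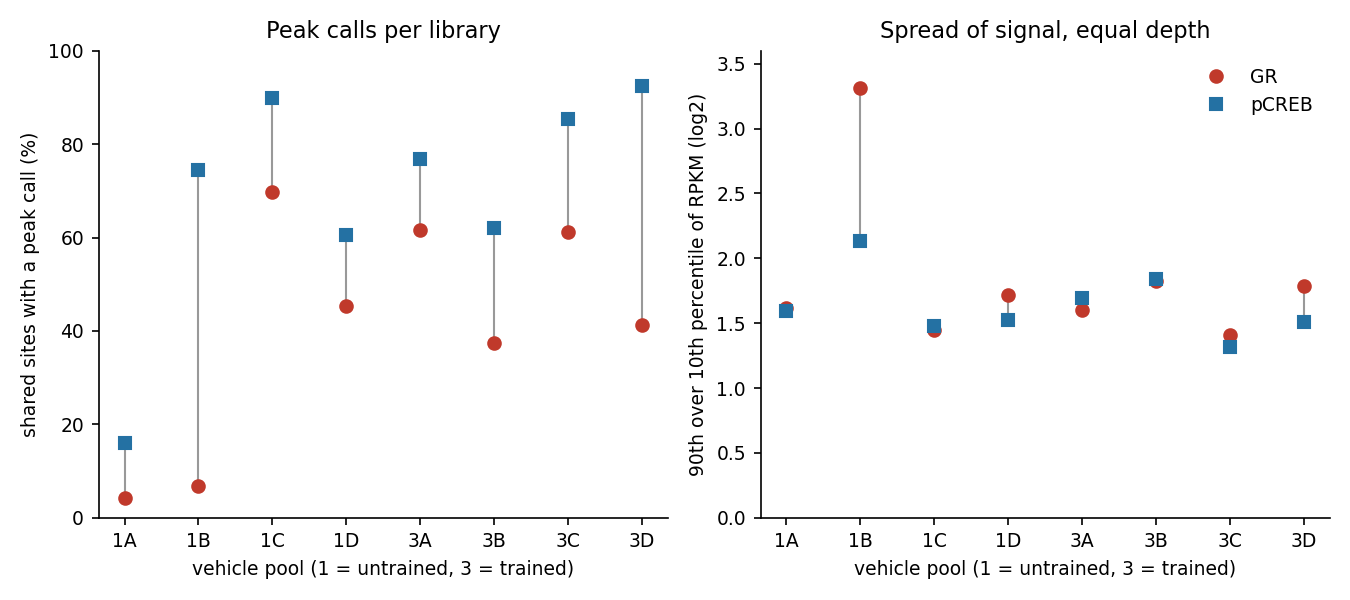
Percentage of the 4227 shared sites with a peak call (left) and log2 ratio of the 90th to the 10th percentile of RPKM at equal depth (right), for the GR and pCREB library of each vehicle pool, joined by a line. The pCREB library has the larger share in all 8 pools, from 16% to 92.5%; GR library 1B stands at 3.32 on the right.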

How the data were processed

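The deposited table gives raw read counts per region and library, made by the authors. HTSeq 0.6.1-1, bedtools 2.26.0, MACS2 2.1.1.20160309 and BWA 0.7.10 are named, with build rn6, per the submitters' processing notes, which state no roles or settings. The 4 input samples were not used here. Single-end runs of 51 bp and 65 bp followed 15 PCR cycles, per the labels' protocols, so counts are not independent molecules.

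Regions were paired by overlap, and counts were scaled by width (end minus start) and by TMM over shared sites. Sites passing filterByExpr were fitted with edgeR 4.0.16 (glmQLFit, glmQLFTest; R 4.3.3, limma 3.58.1) with pool and antibody as terms, and p-values were adjusted over all tested sites. DESeq2 1.42.0 was an alternative. Values per pool were compared by exact permutation tests over all sign flips (numpy 2.4.6), with p from pools of separate rats.

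Pools were paired because the protocol divides each chromatin pool between the antibodies. Same-pool deviations correlated at -0.0001 to 0.298 (median 0.133), and those of different pools at -0.266 to 0.0982 (median -0.0181). The 10 named sites per direction were those with the largest difference among called nuclear sites with above-median average log2 counts per region and the same direction in 8 pools. Members and lists were chosen with earlier results of these data known. Genes, motifs and sequences at the sites were not analysed here, since no rn6 genome or annotation was used. Alternatives are given in the closing section.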

Additional observations from a re-analysis of the deposited data

Results flagged for a closer look

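Groups of 4 libraries were searched for a value far from the other 3, in 100 groups, and chance flags about 1 in 20. There were 6 such values, 5 of them in GR library 1B. RPKM divides by the scaled library size, which was 32768 in GR library 1B and 77709 to 123565 in the other vehicle GR libraries. Its spread of signal was 3.32 on the log2 scale, against 1.45 to 1.72 in the other untrained GR libraries. At chr9:29226466-29226960 it had 2533 RPKM against 365 to 722. At chr3:122189279-122189674 it had 2859 RPKM against 379 to 717, and at chr3:150581563-150581906 it had 3737 RPKM against 637 to 1140. At the mitochondrial site MT:12013-16314 it had 15750 RPKM against 10470 to 11340, although its 2220 reads there were the fewest of the vehicle GR libraries. The sixth value was that of pCREB library 3D at chr10:68863412-68863783, at 101 RPKM against 231 to 257, and it rests on 4 reads.

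The edgeR interaction of antibody and corticosterone passed at chr15:58884552-58885070, at 1.68 on the log2 scale, and at chr1:125288347-125288746, at 1.13. Both calls were lost in DESeq2, and in 9 and 10 of the 16 fits without 1 pool.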

How the results depend on the processing

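Against 80 GR-higher and 145 pCREB-higher sites, the counts were 39 and 95 with no replicate block (pool not in the model), 46 and 74 with DESeq2, 47 and 95 at an adjusted p under 0.01, 230 and 382 with no width correction, 16 and 27 in untrained pools and 53 and 93 in trained pools. The pCREB-higher count was 92 with a mean of 10 or more reads in both antibodies and 70 among pairs with widths within 1.5 times. Leaving out each pool gave 65 to 93 and 103 to 158. With total-count scaling 59 and 182 were called (24.5% GR higher, against 35.6%); with widths within 1.5 times 47.4% were GR higher, and without pool 1C also 47.4%. Scaling to the totals of all nuclear regions of each list moved the median log2 difference to 1.61 and called 4101 and 1. Relative to that scale the direction turned at chr16:23668169-23668474 (0.10), chr1:192613158-192613472 (0.098), chr17:6244406-6244829 (0.12), chr18:18079529-18080011 (0.15) and chr2:30345604-30345806 (0.15); this follows from the construction, as the pCREB list holds many more regions. Named sites otherwise kept their direction, and 433 of 447 alternatives kept direction and call.

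The training interaction called 1 site with total-count scaling, 1 without pools 1A and 1B (chosen after seeing the data) and 0 to 2 with 1 pool left out. The corticosterone interaction called 0 with no replicate block, 0 with DESeq2, 1 with total-count scaling, 0 at an adjusted p under 0.01, 36 without pools 1A and 1B, and 0 to 31 with 1 pool left out, the 31 being without pool 1B; the cause was not tested. The spread difference was 0.39 when not thinned. The peak-call difference was -28.7 points in untrained and -28.8 points in trained pools, where 4 pools cannot reach the threshold. The median SE was 0.28 in the 828 sites with the fewest reads per region. The ranking of sites by mean RPKM was also chosen after seeing the data.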

Other observations

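Some sites were very high in a few libraries and low in the rest. At chr7:144015886-144017606 GR was 11231, 30813 and 30607 RPKM in pools 1B, 1D and 3D and 426 to 1167 RPKM in the other 5. There pCREB was 15924 RPKM in pool 3B and 5837 RPKM in pool 3D and 254 to 526 RPKM in the other 6, so in pool 3B it was pCREB alone that was high. The log2 difference of 1.71 had an SE of 1.24 and did not pass (edgeR adjusted p = 0.59).

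Sites on unplaced contigs also varied widely between libraries. The 16 of them had log2 differences of -0.45 to 1.11, and 3 were called GR higher. At chrUn.51:1-655, the site with the highest mean GR signal, GR ran from 2797 to 80261 RPKM and pCREB from 1870 to 33786 RPKM. The called sites chrUn.143:1-274 and chrUn.284:960-1627 did not pass without pool 1B (edgeR adjusted p = 0.157 and 0.208), nor in the corticosterone pools (0.222 and 0.454).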
